A study of Rattus norvegicus with 4 samples.

Results

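Molecular chaperones help proteins fold, keep unfolded chains from clumping and, where folding fails, hand them on for degradation. Members of the HSP70 family bind exposed hydrophobic stretches, J-domain proteins (the Dnaj genes) bring them substrates and drive their ATP cycle, and HSP90 proteins and the ring-shaped CCT complex finish particular clients. Each compartment has its own set: beta cells fold proinsulin in the endoplasmic reticulum (ER), where BiP (Hspa5) and protein disulfide isomerases act, and the unfolded protein response (UPR) raises those genes when unfolded protein accumulates, whereas heat-shock factors raise the cytosolic set.

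The chaperone genes of INS-1 cells were compared here after 7 days in 22.4 mM glucose (2 arrays) and after 7 days in 11.2 mM glucose (2 arrays). INS-1 is an insulin-secreting line from a rat insulinoma, a transformed line that serves as a beta cell model. Total RNA was hybridized to Affymetrix arrays, and every value below is a deposited log2 signal or a difference of such signals, 22.4 mM minus 11.2 mM, where a difference of 1 is a 2-fold change. No label says that the replicates were separate cultures, so intervals and p-values cover the differences among these arrays alone, whose source may be technical.

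Members were taken by gene symbol: the Hspa to Hsph and Hsp90 genes, the Dnaja, Dnajb and Dnajc genes, the Pdia genes, the Cct2 to Cct8 genes, and Calr, Hyou1, Creld2 and Sdf2l1 by name. The rule found 86 probe sets with a single symbol, for 81 genes of the 14557 named in the table. Of these, 20 act in or on the ER, 43 in the cytosol or nucleus and 6 in mitochondria. A further 5 belong elsewhere or have no settled place, and 7 are pseudogenes or near copies of chaperone genes. The brightest probe set stands for each gene. Canx, Manf, Hsp90b1, Pdia4, Hspa8 and Hspd1 were not analysed here, and Hsp90aa1 and Hspa1a shared their probe sets with other symbols and were left out.

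Array medians lay between 4.73 and 4.80 over all 36685 probe sets. Of the markers of the cell type, 10 of 14 listed for beta cells were measured, with mean signals from 6.85 to 12.43. Of the other hormones Gcg was bright too, with a mean of 11.13, while the 5 acinar and ductal, the 4 immune and 4 of 5 stromal and endothelial markers lay under the median probe set signal of 4.76. Replicate 1 of 11.2 mM stood apart from the other arrays over named genes at or above the median signal. Its mean absolute gaps to the other arrays were 0.21 to 0.28, against 0.11 to 0.18 among the others. It stood apart in stress genes too, and values without it are given beside some of the genes it touches.

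RefSeq promoters (build GRCr8, 250 bases before to 50 after the annotated start) were found for 64 of the 81 genes. The ER stress element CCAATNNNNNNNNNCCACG, bound by ATF6 with the factor NF-Y, was searched on both strands and met in 4 of 18 ER members, 22.2%, against 0 of 36 cytosolic or nuclear members. Among all 33469 promoters 22 held it (0.0657%), and among 7053 promoters of named genes at or above the median signal 9 did (0.128%). The 4 matches are shown for that reason, each with the element in capitals in 60 bases read 5′ to 3′ on the gene's strand.
Hspa5 (chr3:38452952-38453011, plus strand): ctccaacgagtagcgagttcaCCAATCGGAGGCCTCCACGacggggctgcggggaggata
Dnajc3 (chr15:102432513-102432572, plus strand): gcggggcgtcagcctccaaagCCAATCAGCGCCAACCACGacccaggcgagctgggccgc
Creld2 (chr7:121789218-121789277, plus strand): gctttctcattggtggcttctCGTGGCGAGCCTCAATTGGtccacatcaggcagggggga
Calr (chr19:40213117-40213176, plus strand): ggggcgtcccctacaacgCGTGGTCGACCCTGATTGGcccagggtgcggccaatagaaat
In Hspa5 and Dnajc3 the element reads forward, and in Creld2 and Calr it lies on the opposite strand. The short CCACG part, which the whole element contains, was met on either strand in 17 of 18 ER members (94.4%), 18 of 36 cytosolic or nuclear members (50%), 4 of 4 mitochondrial members and 47.0% of promoters of brighter named genes.

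The heat-shock element was searched as GAANNTTC or TTCNNGAA, which read the same on both strands. It was met in 14 of 36 cytosolic or nuclear members (38.9%), 2 of 4 mitochondrial members and 1 of 18 ER members, against 11.6% of promoters of brighter named genes and 15.9% of all promoters. The longer form has 3 units, GAANNTTCNNGAA or its reverse order. It was met in 3 of 36 cytosolic or nuclear members (8.33%), 1 of 4 mitochondrial members and 0 of 18 ER members. Among promoters of brighter named genes 0.539% held it, and among all promoters 0.798%. The members with it were Hsph1, Dnaja1, Cct4 and Hspe1. Hsph1 and Hspe1 carry it upstream of the start and are shown with the units in capitals.
Hsph1 (chr12:10427308-10427367, plus strand): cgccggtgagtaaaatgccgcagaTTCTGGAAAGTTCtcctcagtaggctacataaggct
Hspe1 (chr9:64084241-64084300, plus strand): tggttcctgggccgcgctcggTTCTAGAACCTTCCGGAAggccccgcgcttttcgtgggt
A match in these windows is a description of letters and does not show that a factor binds there.

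The chaperone genes as a whole differed little between the glucose levels, and none passed the test. Limma with Benjamini-Hochberg adjustment called 0 of the 81 members, as it called 0% of the 36685 probe sets. The lowest adjusted p of a member was 0.299. Before adjustment, 3 members were higher and 3 lower at a p under 0.05 in 22.4 mM, 3.70% each, where 4.36% of all probe sets were higher and 4.75% lower. Both 22.4 mM arrays lay above both 11.2 mM arrays in 17 members (21.0%) and below them in 20 (24.7%), where 19.6% and 21.0% of all probe sets did so. The median difference was -0.011 over the members and -0.0038 over all named genes. Differences were positive in 38 members (46.9%) and in 48.9% of all named genes. In RNA from a whole culture, fewer cells that express a gene and less of its RNA per cell cannot be told apart.

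**Figure D1:**
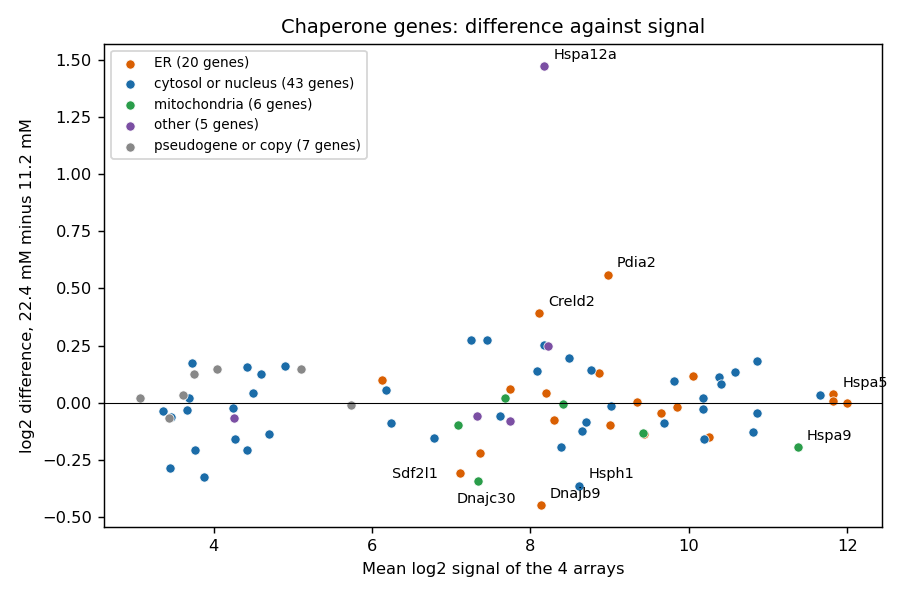
Each point is 1 of the 81 genes, with the mean log2 signal of the 4 arrays on the x axis and the log2 difference, 22.4 mM minus 11.2 mM, on the y axis. Colours give the compartment. Most points lie within 0.25 of 0, Hspa12a stands alone at 1.47, and only Hspa12a and Pdia2 pass 0.5 in either direction.

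The data bound the size of these differences. The 95% interval lay inside a 2-fold change either way in 79 of the 81 members, the exceptions being Hspa12a and Creld2. It lay within 0.5 of 0 in 58 members (71.6%), where 66.1% of all named genes and 58.1% of those at or above the median signal did the same. A difference of 0.5 or more was met in 2 members (2.47%), against 4.67% of all named genes. The bound is weaker for the 21 members under the median signal, since a dim probe set can understate a difference.

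The core of the ER folding machinery gave nearly equal signals at both glucose levels. Hspa5, the ER HSP70 that also holds the UPR sensors in check, had 11.85 and 11.83 in 22.4 mM, against 11.72 and 11.89 in 11.2 mM. Its difference was 0.037 with a 95% interval from -0.25 to 0.32. The groups overlapped, and the spread of the 11.2 mM pair covered both arrays of 22.4 mM. Pdia3, an oxidoreductase that works on glycoproteins together with calreticulin, had 11.98 and 12.02 in 22.4 mM, against 11.97 and 12.03 in 11.2 mM. Calr, which encodes calreticulin, a lectin chaperone that stores calcium, had 11.81 and 11.84 in 22.4 mM, against 11.79 and 11.84 in 11.2 mM. Their differences were -0.0028 (SE 0.096) and 0.0062 (SE 0.094), and the arrays of both genes could not be parted by group. A dimmer probe set of Pdia3, with a mean of 5.44, differed by -0.15 (SE 0.17). The mean over the Pdia3 probe sets differed by -0.074. Hyou1, the large ER HSP70 that exchanges nucleotide on Hspa5, had 9.59 and 9.67 in 22.4 mM and 9.55 and 9.80 in 11.2 mM. Its difference of -0.045 was -0.17 without replicate 1 of 11.2 mM. Hspa13, a microsomal HSP70 relative, differed by 0.0048 (SE 0.095).

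Over the 20 ER members the median difference was 0.0010, with 10 positive and 10 negative. The groups stood apart in 6, with 22.4 mM above in 2 (10%) and below in 4 (20%), where 25.5% and 26.6% of named genes at or above the median signal stood apart. The interval lay within 0.5 of 0 in 16. Pdia6, a disulfide isomerase, was among those below, with 10.19 and 10.16 in 22.4 mM and 10.25 and 10.40 in 11.2 mM, a difference of -0.15 that was -0.077 without replicate 2 of 11.2 mM. Dnajc16, a membrane J protein, was another, with 7.23 and 7.27 against 7.44 and 7.51 and a difference of -0.22 (SE 0.097). Dnajc25, a membrane J protein, was the second of the genes above, with a difference of 0.060 (SE 0.096) that is smaller than its error.

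**Figure D2:**
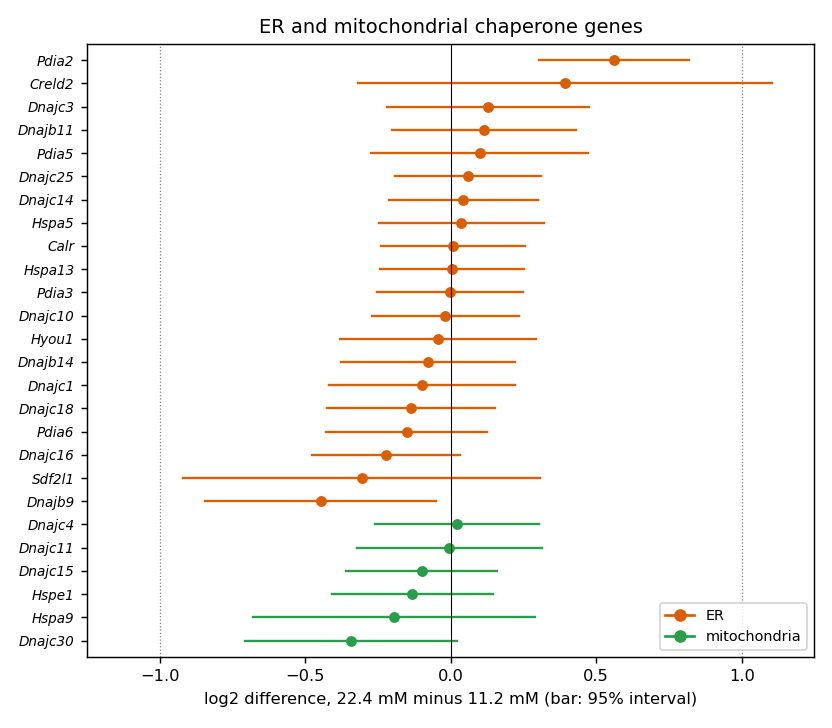
Points are log2 differences, 22.4 mM minus 11.2 mM, of the 20 ER and 6 mitochondrial genes, with bars for the 95% interval of the moderated fit and dotted lines at a 2-fold change either way. The interval of Pdia2 lies above 0 and that of Dnajb9 below it, and all others cross 0.

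Pdia2 was the ER member with the greatest difference. It encodes a disulfide isomerase best known from the exocrine pancreas. Its signal was 9.26 on each array of 22.4 mM, against 8.75 and 8.65 in 11.2 mM. Both 22.4 mM arrays lay above both of 11.2 mM, by several times the spread within either pair, and the difference was 0.56 (SE 0.099), 1.47-fold. It ranked 299 of 14557 named genes by rise. The limma adjusted p was 0.299 and ranged from 0.091 to 0.838 over the alternatives, while the difference stayed between 0.51 and 0.61. The 5 acinar and ductal markers measured (Prss1, Cpa1, Cela1, Pnlip and Krt19) were under the median signal, with array medians of 3.82 and 4.13 in 22.4 mM and 3.998 and 3.987 in 11.2 mM. The related isomerase gene P4hb, which is no member under the rule, had 11.68 and 11.67 in 22.4 mM, against 11.49 and 11.55 in 11.2 mM.

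Dnajb9, the J protein ERdj4 that recruits Hspa5 to the sensor IRE1, stood at the other end. It had 7.89 and 7.93 in 22.4 mM, against 8.54 and 8.18 in 11.2 mM. Both 22.4 mM arrays were lower, and the 11.2 mM pair was itself 0.36 apart. The difference was -0.45 (SE 0.15) with a limma adjusted p of 0.504, and without replicate 1 of 11.2 mM it was -0.26. Upstream stretches of Pdia2 and Dnajb9 are shown because these genes lie at the ends of the ER range, 150 bases up to the start, with CCACG on either strand in capitals.
Pdia2 (chr10:15723376-15723525, minus strand): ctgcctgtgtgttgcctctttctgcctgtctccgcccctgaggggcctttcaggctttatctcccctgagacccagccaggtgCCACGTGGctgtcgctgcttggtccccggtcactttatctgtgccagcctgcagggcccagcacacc
Dnajb9 (chr6:67002052-67002201, minus strand): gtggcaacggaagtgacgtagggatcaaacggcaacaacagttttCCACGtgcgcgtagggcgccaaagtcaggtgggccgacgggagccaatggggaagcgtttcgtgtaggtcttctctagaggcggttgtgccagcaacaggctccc
In Pdia2 matches on both strands overlap in a single run, and neither stretch holds the whole ER stress element.

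Other J proteins of the ER lumen gave small differences. Dnajc3 (P58IPK, which delivers substrates to Hspa5) had 8.92 and 8.94 in 22.4 mM, against 8.65 and 8.94 in 11.2 mM. Dnajb11 (ERdj3, a secreted and luminal cochaperone) had 10.09 and 10.14 in 22.4 mM, against 9.88 and 10.12 in 11.2 mM. In each the array of 11.2 mM that was low was replicate 1, and without it the differences were -0.016 for Dnajc3 and -0.0022 for Dnajb11. Dnajc10 (ERdj5, a reductase in degradation of misfolded protein) differed by -0.018 (SE 0.096). The median over the 10 ER J proteins was -0.048.

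Creld2 and Sdf2l1, ER proteins known as UPR targets, had the most uneven 11.2 mM pairs among ER members. Creld2 had 8.34 and 8.27 in 22.4 mM, against 7.53 and 8.31 in 11.2 mM. Sdf2l1 had 6.97 and 6.95 in 22.4 mM, against 6.94 and 7.60 in 11.2 mM. In both the 22.4 mM arrays were tight and replicate 1 of 11.2 mM was the lower of its pair, by 0.78 and 0.66. The Creld2 difference of 0.39 (SE 0.27) was 0.0023 without that array and 0.78 without replicate 2. The Sdf2l1 difference of -0.31 (SE 0.23) was -0.64 without replicate 1 and 0.024 without replicate 2.

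**Figure D3:**
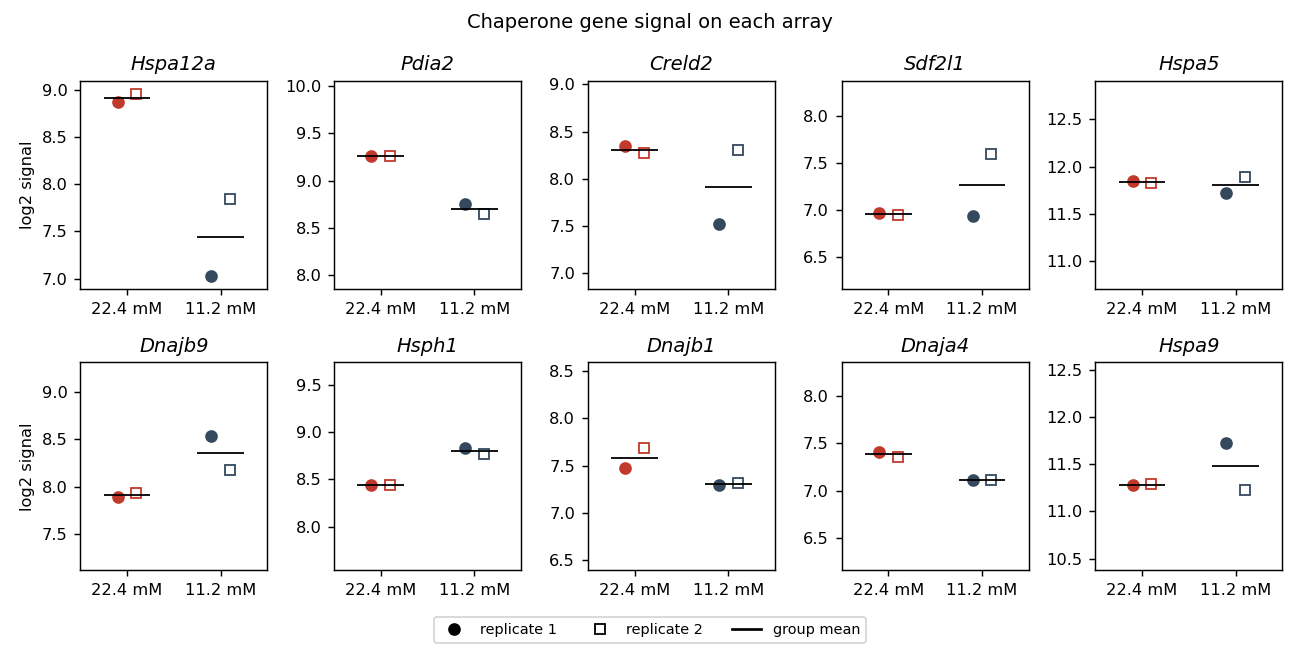
Log2 signal on each array for 10 genes, 22.4 mM left of 11.2 mM, with circles for replicate 1, squares for replicate 2 and lines for group means. All panels span the same range of log2 signal. Hspa12a, Pdia2, Dnajb1 and Dnaja4 lie higher on both 22.4 mM arrays, and Dnajb9 and Hsph1 lower. In Creld2, Sdf2l1, Hspa5 and Hspa9 the 11.2 mM pair is wider than the gap between groups.

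The 11.2 mM arrays differed from each other across named genes, single ER chaperones and the ATF4 targets among them. Their mean absolute gap was 0.21 over ER members and 0.21 over named genes at or above the median signal. Replicate 1 was above replicate 2 in 7 of the 20 ER members, with a median gap of -0.069, in 17 of the 43 cytosolic or nuclear members, with a median of -0.0057, and in 32 of all 81 members. Among named genes at or above the median signal it was above in 3901 of 8544, with a median of -0.024. Differences among these groups of genes were not tested. Replicate 1 was lower in each of the 4 genes that carry the ER stress element. For Hspa5 that gap was -0.17, for Creld2 -0.78, for Dnajc3 -0.29 and for Calr -0.048. It was not particular to carriers of the element: Sdf2l1 and Hyou1, without a match, had gaps of -0.66 and -0.26. Over the same pair, 14 of 15 measured ATF4 targets were higher on replicate 1, with a median of 1.18. Their median difference between the glucose levels was -0.63, and 0.0049 without replicate 1 of 11.2 mM. Ddit3, a death-promoting factor downstream of ATF4, had 8.47 on replicate 1 and 6.69 on replicate 2. Ddit3 is at the upper end of the UPR and degradation list, of which 15 of 29 genes were higher on replicate 1, with a median of 0.010. Dnajb9 had 8.54 on replicate 1 and 8.18 on replicate 2. This is a difference between single arrays of a group and has no test, and its part in the differences between glucose levels was not tested beyond the values without that array.

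**Figure D4:**
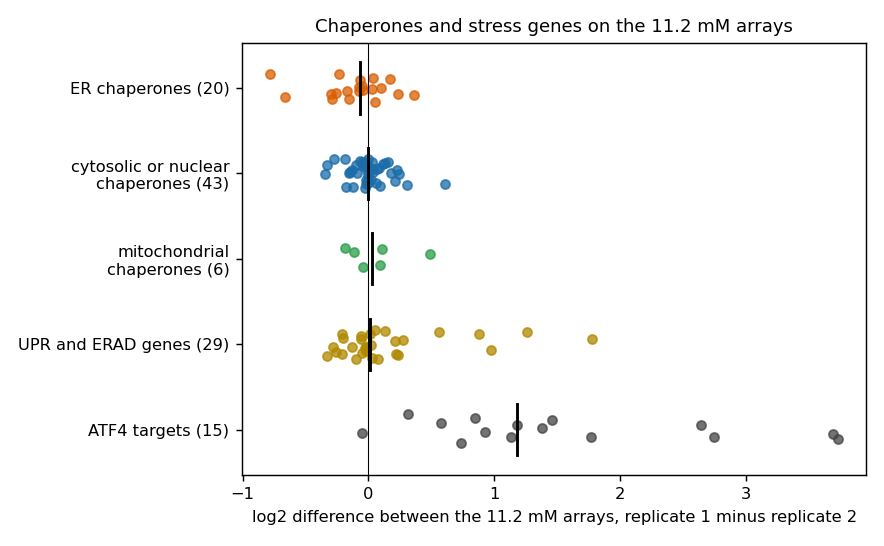
Each point is a gene, placed by the log2 difference between replicate 1 and replicate 2 of 11.2 mM, with a black line at the median of its group and a small vertical scatter for legibility. ER chaperones sit around -0.069, cytosolic or nuclear chaperones around -0.0057, and ATF4 targets around 1.18.

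Of 43 other UPR and ER-associated degradation entries listed, 29 were measured, 9 with positive and 20 with negative differences (median -0.090). Of named genes at or above the median signal 49.3% were positive. In the list 22.4 mM stood above in 2 genes (6.90%) and below in 12 (41.4%), against 25.5% and 26.6% of those named genes. These gaps were not tested. Limma with adjustment over all probe sets called 0. At a limma unadjusted p under 0.05 there was 1 higher and 1 lower (3.45% each). Of named genes at or above the median signal, 7.01% were higher and 7.27% lower at that threshold. The higher was Eif2ak3, which encodes the sensor PERK, with 8.54 and 8.43 in 22.4 mM, against 8.22 and 7.98 in 11.2 mM. The lower was Atf6b, a relative of the sensor ATF6, with 8.20 and 8.25 in 22.4 mM, against 8.60 and 8.54 in 11.2 mM. In both genes the groups stood apart. Mbtps1, the protease that activates ATF6, differed by -0.24 (SE 0.093), and Atf6 itself by -0.22 (SE 0.12). Xbp1, the target of the sensor IRE1, differed by -0.11 (SE 0.10), Ern1 by -0.50 (SE 0.42) and Ddit3 by -0.68 (SE 0.59). Atf4, counted with its targets, differed by -0.76 (SE 0.48). Replicate 1 of 11.2 mM sets the last 3: without it they were 0.13 for Ern1, 0.21 for Ddit3 and -0.031 for Atf4. Without it Atf6 differed by -0.11.

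Cytosolic and nuclear chaperones had a median difference of -0.023 over 43 genes, 20 positive and 23 negative. The groups stood apart in 25, with 22.4 mM above in 12 (27.9%) and below in 13 (30.2%). Over all named genes these shares were 21.5% and 23.1%. Among the 28 members at or above the median signal, 22.4 mM was above in 11 (39.3%) and below in 6 (21.4%). The shares of named genes at or above that signal were 25.5% and 26.6%, and the gap between these shares was not tested. All 43 intervals lay inside a 2-fold change. Under the median signal lay 15 of them, among them Hspb1, Hspa1b, Cct6b and Cct8l2.

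Of the 7 HSP70, HSP110 and HSP90 genes in this compartment 5 had negative differences, with a median of -0.14. Among all named genes 7437 of 14557 were negative. Without replicate 1 of 11.2 mM, 3 of the 7 were positive, Hspa4l among them. The sign count in so small a group was not tested. Hsph1, the HSP110 that exchanges nucleotide on HSP70, had 8.44 on each array of 22.4 mM, against 8.84 and 8.77 in 11.2 mM. The pairs were tight and apart, and the difference was -0.36 (SE 0.096), with -0.33 without replicate 1 of 11.2 mM. The limma adjusted p was 0.422, and from 0.214 to 0.902 over the alternatives. Hspa4, a relative of Hsph1, had 10.14 and 10.09 in 22.4 mM, against 10.32 and 10.23 in 11.2 mM. Hspa4l had 8.71 and 8.61 in 22.4 mM, within its 11.2 mM pair of 9.05 and 8.44. Its difference of -0.086 was 0.22 without replicate 1 of 11.2 mM. The heat-inducible Hspa1b was dim, with 4.42 and 4.22 in 22.4 mM, against 4.50 and 4.55 in 11.2 mM. Its difference of -0.21 had a 95% interval from -0.51 to 0.098. At so dim a signal neither the presence nor the size of a difference is settled. Hsp90ab1, the constitutive cytosolic HSP90, had 10.92 and 10.99 in 22.4 mM, against 10.68 and 10.87 in 11.2 mM. Its difference was 0.18 (SE 0.11), and 0.088 without replicate 1 of 11.2 mM.

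Of 19 cytosolic or nuclear J proteins 11 had positive differences, with a median of 0.032. Dnajb1, the main heat-inducible partner of HSP70, had 7.48 and 7.69 in 22.4 mM, against 7.30 and 7.32 in 11.2 mM. Dnaja4 had 7.41 and 7.36 in 22.4 mM, against 7.11 on each array of 11.2 mM. Both were higher on both arrays, with the same difference of 0.27 (SE 0.11 and 0.094), and the limma adjusted p was 0.574 and 0.509. Leaving out an array in turn gave 0.17 to 0.38 for Dnajb1, the lowest without replicate 2 of 22.4 mM and the highest without replicate 1, and 0.25 to 0.29 for Dnaja4. Dnajc12, a J protein of aromatic amino acid hydroxylases, had 8.25 and 8.34 in 22.4 mM, against 7.87 and 8.21 in 11.2 mM, and differed by 0.25 (SE 0.15). It differed by 0.079 without replicate 1 of 11.2 mM. Dnaja1, an abundant farnesylated partner of HSP70, differed by 0.032 (SE 0.10), and Dnajb4 by -0.20 (SE 0.13), or -0.082 without replicate 2 of 22.4 mM.

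**Figure D5:**
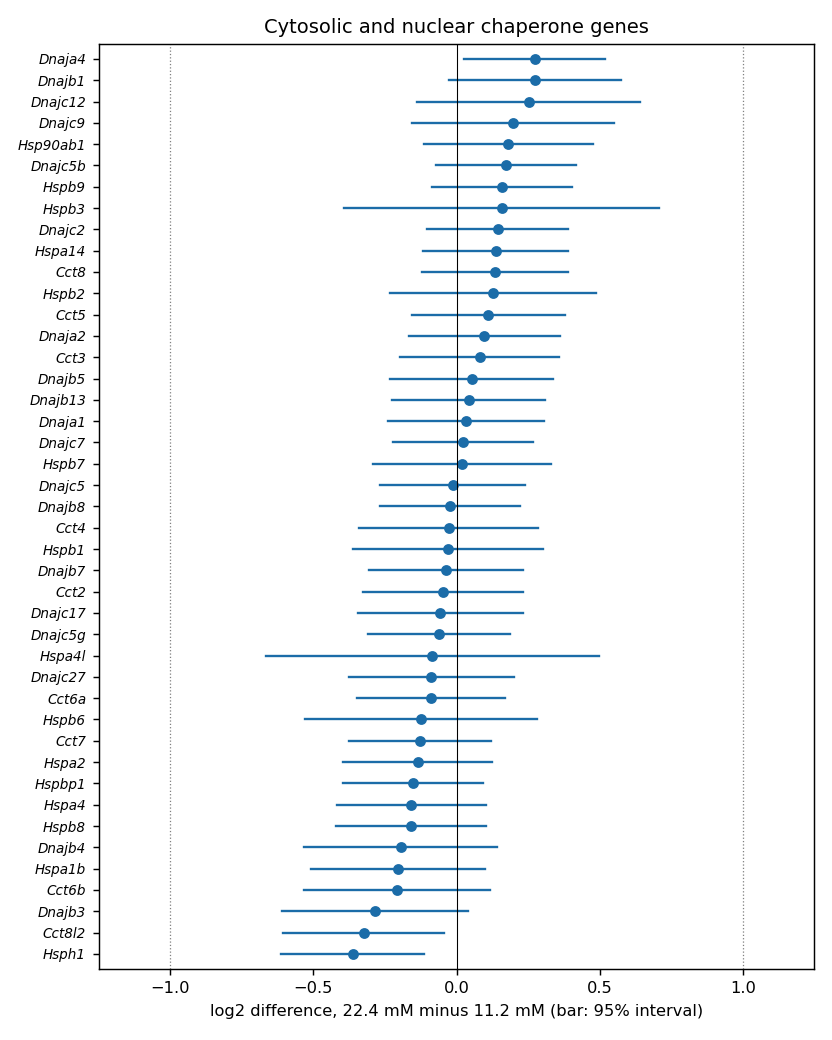
Points are log2 differences, 22.4 mM minus 11.2 mM, of the 43 cytosolic and nuclear genes, with bars for the 95% interval and dotted lines at a 2-fold change either way. The range runs from -0.36 for Hsph1 to 0.27 for Dnaja4, and the interval leaves 0 in Dnaja4, Cct8l2 and Hsph1.

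The CCT complex, which folds actin and tubulin, lay close to 0 in its differences. Its 7 ubiquitous subunit genes under the rule ran from -0.13 for Cct7 to 0.13 for Cct8, with a median of -0.027. Cct8 had 10.64 and 10.65 in 22.4 mM, against 10.46 and 10.56 in 11.2 mM. Cct7 had 10.75 on each array of 22.4 mM, against 10.90 and 10.85 in 11.2 mM. Subunits of a single complex thus lay on both sides of 0, and the interval lay within 0.5 of 0 in all 7. Cct5 differed by 0.11 (SE 0.10), Cct3 by 0.080 (SE 0.11), Cct4 by -0.027 (SE 0.12), Cct2 by -0.047 (SE 0.11) and Cct6a by -0.090 (SE 0.098). Tcp1, the remaining subunit and no member under the rule, had 10.88 and 10.89 in 22.4 mM, against 10.63 and 10.71 in 11.2 mM. The tissue-restricted Cct6b and Cct8l2 had mean signals of 3.76 and 3.88, under the median probe set.

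Small heat-shock proteins, which hold unfolded chains without ATP, were mostly dim: 5 of 7 lay under the median signal. Hspb1, the classic member, had 3.72 and 3.57 in 22.4 mM, against 3.78 and 3.57 in 11.2 mM. Hspb6 and Hspb9 were the exceptions, though Hspb9, with a mean of 4.90, lay only just over the median of 4.76. Hspb6 had 8.49 and 8.69 in 22.4 mM, against 8.55 and 8.88 in 11.2 mM, and the groups overlapped. The 7 differences ran from -0.16 to 0.16.

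Among 32 listed cochaperones and heat-shock factors, 23 were measured, 15 positive and 8 negative (median 0.069). Limma with adjustment called 0. At a limma unadjusted p under 0.05 there were 2 higher (8.70%) and 0 lower. Of named genes at or above the median signal, 7.01% were higher and 7.27% lower at that threshold. The 2 higher were Ptges3 and Pfdn1. Ptges3, the HSP90 cochaperone p23, had 10.08 and 10.12 in 22.4 mM against 9.81 and 9.79 in 11.2 mM. The prefoldin subunit Pfdn1 had 9.25 on each array of 22.4 mM against 8.85 and 9.01 in 11.2 mM. The transcription factors of the heat-shock response differed little: Hsf1 differed by -0.074 (SE 0.093) and Hsf2 by 0.016 (SE 0.10).

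Of 6 mitochondrial members 5 had negative differences, with a median of -0.12, where 7437 of 14557 named genes were negative. Hspa9, the HSP70 that pulls proteins into the matrix, had 11.28 and 11.29 in 22.4 mM, against 11.72 and 11.23 in 11.2 mM. The 22.4 mM arrays lay between the 11.2 mM arrays, and the difference of -0.19 (SE 0.18) was 0.051 without replicate 1 of 11.2 mM. Hspe1, the cochaperonin that caps the mitochondrial chaperonin, had 9.28 and 9.43 in 22.4 mM, against 9.46 and 9.51 in 11.2 mM, and its difference of -0.13 was -0.057 without replicate 1 of 22.4 mM. Dnajc15, a J protein of the import motor, differed by -0.10 (SE 0.099). Dnajc30 had 7.02 and 7.31 in 22.4 mM, against 7.56 and 7.46 in 11.2 mM, a difference of -0.34 (SE 0.14) without overlap. Each array of 22.4 mM moved it: leaving out replicate 1 gave -0.19, and leaving out replicate 2 gave -0.49. A further pair of Dnajc30 probe sets held values identical to each other and differed by -0.56 (SE 0.16).

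Of 12 listed genes of mitochondrial protein quality control, all measured, 5 had positive and 7 negative differences. The J protein Hscb, which serves iron-sulfur cluster transfer, had the smallest unadjusted p, with 7.20 and 7.54 in 22.4 mM, against 6.90 and 6.82 in 11.2 mM. It was the 1 gene of the list (8.33%) with a limma unadjusted p under 0.05, while limma with adjustment called 0. Of named genes at or above the median signal, 7.01% were higher and 7.27% lower at that threshold. The protease Lonp1 had 9.19 and 9.14 in 22.4 mM, against 9.66 and 9.24 in 11.2 mM, high like Hspa9 on replicate 1. Without that array its difference of -0.28 was -0.074.

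The greatest difference of any member was in Hspa12a, an atypical HSP70 relative whose ATPase domain is split and which is not counted with the classic folding chaperones. It had 8.87 and 8.95 in 22.4 mM, against 7.03 and 7.84 in 11.2 mM. Both arrays of 22.4 mM lay above both of 11.2 mM by more than the wide gap within the 11.2 mM pair. The difference was 1.47 (SE 0.28; 95% interval 0.73 to 2.22), or 2.78-fold, and ranked 18 among 14557 named genes by rise. The limma adjusted p was 0.322, and from 0.093 to 0.830 over the alternatives. Without replicate 1 of 11.2 mM the difference was 1.06, and without replicate 2 it was 1.88. Its relative Hspa12b was dim, with 4.27 and 4.19 in 22.4 mM, against 4.22 and 4.37 in 11.2 mM.

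The other 3 genes without a settled place gave little. Dnajc22 had 8.30 and 8.39 in 22.4 mM, against 7.81 and 8.39 in 11.2 mM, and without replicate 1 of 11.2 mM its difference of 0.25 was -0.039. Dnajc13, which acts on endosomes, differed by -0.081 (SE 0.10), and Hspbap1 by -0.059 (SE 0.10). The 7 pseudogenes and copies, among them Hspa8-ps31, Hsp90ab1-ps7 and Pdia6l1, ran from -0.066 to 0.15. Of these 5 lay under the median signal, and signal shared with a parent gene was not tested.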

How the data were processed

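Total RNA of INS-1 cells was measured on 4 Affymetrix arrays, 2 per glucose level, grouped by their titles. The authors deposited 1 table of log2 signals for 36685 probe sets. Base 2 was inferred from the range of values. How the arrays were normalized, and with what software, was not given in the sources used here. Values were used as deposited. Gene symbols came from the platform annotation, which can be old, and 14824 probe sets carried a single symbol. One model for the whole table was fitted in R 4.3.3 using lmFit and eBayes from limma 3.58.1, with 2 residual degrees of freedom and two-sided tests. P-values were adjusted by Benjamini-Hochberg across the 36685 probe sets, and an adjusted p under 0.05 was called. The median standard error of a member was 0.11, a precision set by the small number of arrays. The fit was tested on simulated data. Members, compartments and lists were chosen with earlier results of these data known. Genes named are the central chaperones of each compartment, fixed by name, and up to 3 rises and 3 falls per compartment among members without overlap and at or above the median signal, other members being named as ends of a range or for a role. Of other lists, the smallest unadjusted p and the sensors are named, with further genes chosen after their values were seen. Promoters are RefSeq sequences of GRCr8. A planned scan of protein ends was not run, since protein sequences were not used here. Alternatives were quantile normalization, median centring, other sets of probe sets, an intensity trend, a replicate block, the mean over probe sets and leaving out each array.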

Additional observations from a re-analysis of the deposited data

How the results depend on the processing

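No alternative called a member, and 43 of the 81 differences kept their sign under all of them while 38 did not, most of these close to 0. With the replicate number as a block (replicate block) there were 2 members higher and 2 lower at an unadjusted p under 0.05, and 0 passed after adjustment. The titles do not say that a number marks a shared culture, so it pairs nothing by design. Leaving out each array in turn gave 2 to 5 members higher and 0 to 4 lower at an unadjusted p under 0.05, the 5 arising without replicate 2 of 11.2 mM and the 0 without replicate 1 of 22.4 mM. Groups without overlap then numbered 49 to 70, since a lone array is easier to part from a pair. The ER median ran from -0.027 to 0.028 in these fits, the cytosolic and nuclear median from -0.027 to 0.021 and the mitochondrial median from -0.16 to -0.066. The cytosolic and nuclear median was -0.014 with median centring, -0.013 with the mean over a gene's probe sets and 0.027 when probe sets dimmer than the median were dropped, where fewer genes enter, so its sign is not settled. Among the 14824 probe sets with a single symbol 62 passed, and 0 members did (lowest adjusted p = 0.091). Dim signals limit what can be said of 21 members.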
